A study of Mus musculus with 4 samples.

Results

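The genes described here code for the core of the spliceosome and for the SR proteins that steer it, and they were chosen by symbol: every row of the deposited table of expressed genes whose symbol began with Snrp, Sf3a, Sf3b, Lsm, Srsf or Prpf, with a number after the last 3 of these stems. The rule found 53 of the 11160 features in the table: 12 Snrp, 7 Sf3, 11 Lsm, 10 Srsf and 13 Prpf genes. RNA-seq that keeps the strand, with reads of 75 bases from total RNA depleted of ribosomal RNA, gave 4 libraries. The knockout group held 2 libraries labelled Mcph1 KO, from embryos with a full knockout of Mcph1, the gene of the microcephaly protein microcephalin, and the wild-type (WT) group held 2 libraries. All 4 came from neural progenitor cells of the dorsal telencephalon of C57BL/6J mouse embryos at embryonic day 12.5, expanded in suspension as neurospheres, clusters of dividing cells, in medium with N2, B27, FGF and insulin. Cultures of single telencephalons were pooled within genotype for expansion and RNA was pooled again within genotype, so a library is not 1 animal, and the p-values below measure the spread between these pools. The study set the knockout libraries against the WT libraries to compare their transcriptomes.

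The spliceosome removes introns from pre-mRNA. It is built on small nuclear RNAs, of which U1, U2, U4 and U5 each sit in a ring of Sm proteins while U6 sits in a related ring of Lsm proteins. The Sm proteins are the products of Snrpb, Snrpd1, Snrpd2, Snrpd3, Snrpe, Snrpf and Snrpg. U1 recognises the start of an intron and U2, with its SF3a and SF3b subcomplexes, the branch point, and the tri-snRNP of U4, U6 and U5, which holds many of the Prpf proteins, then forms the active site. SR proteins bind exons through RNA-recognition motifs and recruit this machinery through domains rich in serine and arginine. Mutations in genes of this machinery are known to cause disease limited to single tissues, such as retinal degeneration from human PRPF8, PRPF3 and PRPF31.

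Between 5975471 and 22347416 reads could be recovered per library from the deposited values (the shallowest was KO 2 and the deepest WT 2), and levels are in scaled CPM: reads per 1000000 after TMM scaling to a common total. A level of 3 reads equals 0.137 to 0.533 scaled CPM, counting error only, and the lowest value of the 53 genes, Lsm10 in KO 2, was 8.89. Mcph1 itself read 19.5 and 20.3 scaled CPM in the KO libraries and 21.1 and 21.6 in the WT libraries (log2 fold change -0.10, SE 0.24), but a count over the whole gene does not check the deletion. Of the marker lists, 15 of 16 radial glia genes were in the table, whereas 0 of 7 microglia and 0 of 10 red cell genes were listed. The radial glia genes summed to 6845 and 9528 scaled CPM in KO 1 and KO 2, and to 13428 and 13659 in WT 1 and WT 2. Gene by gene they had no common direction, with 8 positive and 7 negative estimates and a median log2 fold change of 0.06. Fabp7, one of the most abundant, read 2020 and 2263 in the KO libraries and 5307 and 5387 in the WT libraries. The 13 listed neuron genes (of 18) summed to 2134 in KO 1 and 902 in KO 2, and to 968 and 1146 in the WT libraries, so KO 1 stood apart. The 7 astrocyte genes, all listed, summed to 1417 and 2055 in the KO libraries and to 2364 and 1049 in the WT libraries, and 8 of 10 oligodendrocyte lineage genes to 738 and 1030 in the KO libraries and to 1100 and 1074 in the WT libraries. Listed too were 2 of 6 intermediate progenitor genes, 1 of 9 endothelial and mural genes (Acta2) and 1 of 7 meningeal genes (Pdgfra, which oligodendrocyte progenitors also express).

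None of the 53 genes passed the test at an adjusted p of 0.05 (limma on log2(scaled value + 1), two-sided, Benjamini-Hochberg over 10959 features), where the background was 0.0% in each direction. The estimates were nonetheless unevenly placed: 38 of the 53 (71.7%) had a negative log2 fold change, against 48.6% of all tested features, and their median was -0.21, against 0.012 for all features. Both KO libraries lay below both WT libraries for 15 genes (28.3%, background 20.0%) and above both for 7 genes (13.2%, background 21.1%), and the groups overlapped for 31. At an unadjusted p of 0.05 limma counted 1 of the 53, Snrpa, a share below the background of 7.58%. On the recovered reads edgeR's quasi-likelihood test and DESeq2 (background 0.0538% higher and 0.134% lower) called 0 of the 53. Each counted 3 at an unadjusted p of 0.05, against 866 of 10949 features for edgeR and 802 of 11160 for DESeq2. For limma-voom 0 of the 53 were called and 1 was counted, against 904 of 10949 features. Medians by stem were -0.40 for Srsf, -0.30 for Lsm, -0.26 for Snrp, -0.19 for Sf3 and -0.11 for Prpf genes. They depended on single libraries: the Snrp median was 0.038 without WT 2, the Prpf median 0.0010 without KO 2, and without KO 2 the others were -0.086 for Srsf, -0.084 for Lsm and -0.084 for Sf3. All these estimates are after TMM scaling: in the values as deposited the median of all features was -1.25, and genes with positive estimates here then had negative ones, such as Snrpa at -0.40. RNA from bulk cultures cannot tell fewer cells of a kind from less RNA per cell.

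**Figure D1:**
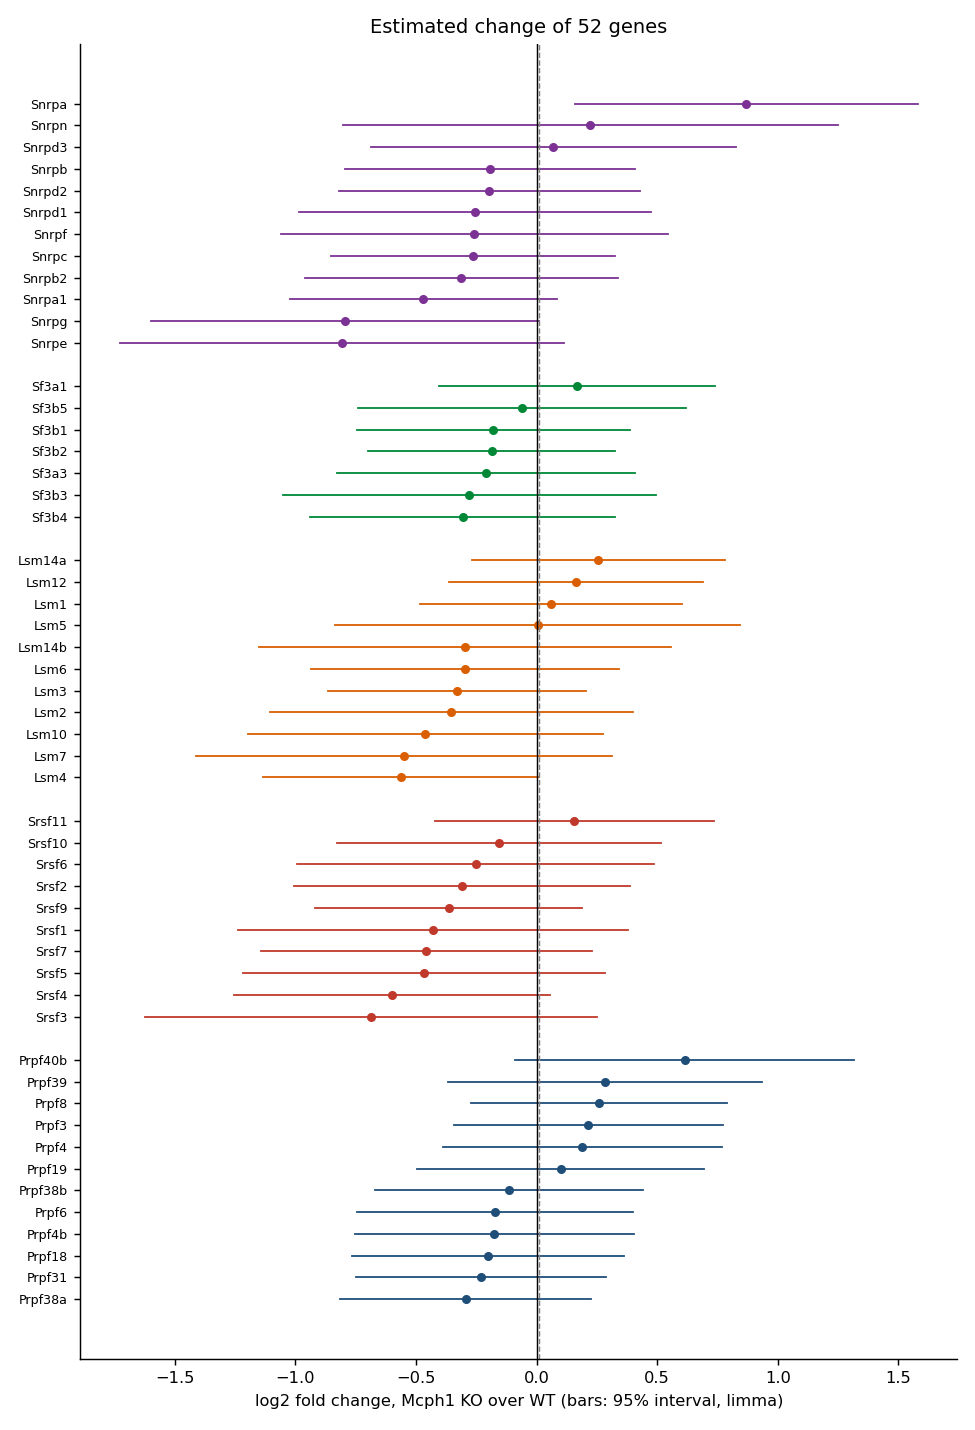
log2 fold change of 52 of the 53 genes, Mcph1 KO over WT (x axis), with its 95% interval from limma as a bar, grouped and coloured by stem, and the median of all tested features (0.012) as a dashed line. 37 of the 52 points lie below 0, and the interval of Snrpa, 0.16 to 1.58, is the one that does not include 0.

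The promoters of Snrpa, Snrpe, Snrpg and Srsf3 are shown, because these 4 genes had the largest estimated changes among the 44 members with an entry in the RefSeq promoter table. Each is the 120 bases before the gene's first listed start (build GRCm38.p6), written 5′ to 3′ on the gene's strand: chr7:27196272-27196391 (minus) for Snrpa, chr1:133610281-133610400 (minus) for Snrpe, chr6:86371420-86371539 (plus) for Snrpg and chr17:29032540-29032659 (plus) for Srsf3. The starts used are those of RefSeq. In the GENCODE M21 annotation the gene start lies inside the Snrpe and Srsf3 windows and upstream of the whole Snrpg window. Capitals mark matches on either strand to 6 motifs. They are the core of ETS factor sites (CCGGAA), the box named for its letters CCAAT, the TATA box (TATAAA), the GC box (GGGCGG), the E-box (CACGTG) and the cyclic AMP response element (TGACGTCA).
Snrpa: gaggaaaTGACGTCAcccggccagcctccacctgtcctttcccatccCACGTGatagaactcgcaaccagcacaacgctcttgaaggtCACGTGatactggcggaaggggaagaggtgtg
Snrpe: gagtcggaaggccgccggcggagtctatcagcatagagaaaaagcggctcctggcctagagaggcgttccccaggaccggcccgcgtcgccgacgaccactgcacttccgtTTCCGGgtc
Snrpg: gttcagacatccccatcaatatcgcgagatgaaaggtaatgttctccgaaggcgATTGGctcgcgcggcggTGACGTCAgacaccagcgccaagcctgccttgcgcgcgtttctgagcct
Srsf3: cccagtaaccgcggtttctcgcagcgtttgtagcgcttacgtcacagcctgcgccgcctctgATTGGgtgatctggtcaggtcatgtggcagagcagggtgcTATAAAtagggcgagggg
The Snrpa stretch holds TGACGTCA once and CACGTG at a pair of places, Snrpe holds CCGGAA read on the other strand, Snrpg holds CCAAT (as ATTGG) and TGACGTCA, and Srsf3 holds ATTGG and TATAAA. Within 250 bases before the start, CCGGAA was found in 21 of the 44 members' promoters (47.7%), in 24.6% of 7448 promoters of tested features and in 12.2% of all 27025 promoters. TGACGTCA was in 2 of the 44 (4.55%), Snrpa and Snrpg, whose estimates had opposite signs, against 3.06% of tested features' promoters. CCAAT was in 43.2% of the members' promoters and 37.3% of the tested ones, GGGCGG in 59.1% and 62.3%, TATAAA in 9.09% and 5.59%, and CACGTG in 6.82% and 8.86%. In all promoters the shares were 34.5% for CCAAT, 32.9% for GGGCGG, 13.0% for TATAAA, 6.05% for CACGTG and 1.62% for TGACGTCA. These are matches of letters and not shown to be bound.

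Of the 8 genes of the Sm ring, 6 had negative estimates and 2 positive ones, with a median log2 fold change of -0.23. Snrpe, which codes for SmE, read 79.96 and 54.2 scaled CPM in KO 1 and KO 2, and 81.8 and 162 in WT 1 and WT 2. Both KO libraries were below both WT libraries, but KO 1 was close to WT 1 and the distance came mainly from WT 2. Snrpg, for SmG, read 23.7 and 16.2 in the KO libraries and 27.1 and 42.8 in the WT libraries, again without overlap. The log2 fold changes were -0.81 for Snrpe (SE 0.38, limma adjusted p 0.659) and -0.79 for Snrpg (SE 0.33, limma adjusted p 0.655), and without WT 2 they were -0.31 for Snrpe and -0.47 for Snrpg. Snrpd1, for the ring subunit SmD1, read 150.6 and 130.6 in the KO libraries against 129 and 217 in the WT libraries; the groups overlapped and its log2 fold change of -0.26 became 0.12 without WT 2 and 0.04 after removal of the length and GC trend. WT 2 was above WT 1 for all 8 ring genes, with a median log2 distance of 0.64, a spread between WT libraries wider than the median difference between the groups.

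Snrpn, the imprinted and neuron-rich stand-in for SmB, shares its row with Snurf, the other protein of the same transcript. It read 135 and 54.2 scaled CPM in KO 1 and KO 2 and 70.9 and 75.6 in the WT libraries. KO 1 was the highest of the 4 and KO 2 the lowest, 1.31 apart on the log2 scale, so the log2 fold change of 0.22 (SE 0.42) turned to -0.43 without KO 1. All 13 neuron markers were above both WT libraries in KO 1, against 4257 of the 10959 tested features. KO 2 had the lowest sum and was the lowest library for 7 of the 13, against 2998 of the 10959. The part of the neuron markers in the Snrpn values was not tested.

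Among the proteins bound to single particles, Snrpa had the largest estimate of the 53. Snrpa codes for the A protein of U1, which binds a stem-loop of U1 RNA, and it read 55.8 and 84.1 scaled CPM in KO 1 and KO 2 and 32.6 and 43.0 in WT 1 and WT 2. Both KO libraries were above both WT libraries, and the KO libraries differed by more than the WT libraries did. Mean levels were 70.0 ± 19.97 in KO and 37.8 ± 7.36 in WT (SD, n = 2 each). The log2 fold change was 0.87 (95% interval 0.16 to 1.58, fold 1.83). It was 1.16 without KO 1 and 0.56 without KO 2. Its limma p was 0.0237 before and 0.655 after adjustment over 10959 features, and the adjusted p ran from 0.193 to 0.999 over the other settings tried. Snrpa1, for the A′ protein of U2, read 78.8 and 66.7 in the KO libraries and 108 and 93.4 in the WT libraries. Its groups did not overlap either, in the other direction, with a log2 fold change of -0.47 (SE 0.23, limma adjusted p 0.666). Snrpb2, for the B″ protein of U2, a close relative of the A protein of U1, had a log2 fold change of -0.31 with overlapping groups. Snrpc, for the C protein of U1, had one of -0.26 without overlap and below WT.

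The SF3 genes showed small and mostly negative estimates. All 5 SF3b genes were below 0, with a median log2 fold change of -0.19, and 3 of them had both KO libraries below both WT libraries (background 20.0%). Sf3b1, the branch-point clamp that is often mutated in blood cancers, read 481 and 417 scaled CPM in the KO libraries and 508 and 506 in the WT libraries. The WT libraries were nearly level and both KO libraries were under them, at a log2 fold change of -0.18 (SE 0.23), which was -0.28 without KO 1 and -0.084 without KO 2. Sf3b2, its partner at the U2 and intron duplex, read 161 in KO 1, 160.5 in KO 2, 184 in WT 1 and 181 in WT 2 (log2 fold change -0.19, SE 0.21), with both pairs tight and apart. Sf3b4, which contacts the pre-mRNA upstream of the branch point, read 14.1 and 12.3 in the KO libraries and 16.0 and 16.6 in the WT libraries (log2 fold change -0.31, SE 0.26).

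Sf3b3, the large beta-propeller scaffold of SF3b, read 164 and 95.6 scaled CPM in KO 1 and KO 2 and 133 and 173 in WT 1 and WT 2. KO 2 alone was low, and the log2 fold change of -0.28 became 0.10 without it. Sf3a3 (SF3a60), which ties SF3a to the U2 particle, read 142 and 110.2 in the KO libraries against 128 and 164 in the WT libraries, with overlap, and its estimate of -0.21 was -0.037 without KO 2 and -0.030 without WT 2. The other SF3a gene measured, Sf3a1, had a log2 fold change of 0.17, and Sf3b5 one of -0.06. The smallest adjusted p over the 7 SF3 genes was 0.762 (limma).

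Lsm2 to Lsm7 belong both to the nuclear ring on U6 and to the cytoplasmic ring that Lsm1 completes and that starts mRNA decay. Of these 7 ring genes 5 had negative estimates, and the median log2 fold change was -0.33. Lsm4 read 32.5 and 31.5 scaled CPM in the KO libraries and 42.6 and 52.4 in the WT libraries. The KO pair was tight and below both WT libraries, at a log2 fold change of -0.56 (SE 0.24, limma p 0.0524, adjusted p 0.655). Lsm3 was likewise without overlap, at 92.9 and 89.4 in the KO libraries and 106 and 124 in the WT libraries (log2 fold change -0.33, SE 0.22; -0.21 without WT 2). Lsm7 read 33.4 and 26.7 in the KO libraries against 31.5 and 60.6 in the WT libraries, where WT 2 stood alone, and its log2 fold change of -0.55 was -0.08 without that library. Lsm6 read 115 and 84.1 in the KO libraries and 107 and 136 in the WT libraries, with overlap, and its estimate of -0.30 was -0.081 without KO 2 and -0.13 without WT 2. Lsm1, the subunit of the decay ring alone, had a log2 fold change of 0.06, Lsm2 one of -0.35 and Lsm5 one of 0.005, all with overlap. WT 2 was above WT 1 for all 7 ring genes.

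The other 4 Lsm genes did not share a direction. Lsm10, of the U7 particle that cuts the 3′ ends of histone mRNAs, read 12.7 and 8.89 scaled CPM in the KO libraries and 13.7 and 15.6 in the WT libraries. The KO libraries were below both WT libraries (log2 fold change -0.46, SE 0.30), and the estimate was -0.71 without KO 1 and -0.22 without KO 2. Lsm14a, a P-body protein that represses translation, read 127 and 139.5 in the KO libraries and 107 and 117 in the WT libraries. It was higher in both KO libraries (log2 fold change 0.26, SE 0.22). Its relative Lsm14b read 105 in KO 1 but 52.1 in KO 2, against 87.4 and 94.1 in the WT libraries; its log2 fold change of -0.30 became 0.20 without KO 2. Lsm12 had a log2 fold change of 0.16, without overlap.

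The SR protein genes had the lowest median of the 5 stems, -0.40, and 9 of 10 had negative estimates, but the position of the KO libraries differed. KO 2 was below both WT libraries for 9 of the 10 genes (background 37.1%) and KO 1 for 2 (background 36.2%); KO 1 lay between the WT libraries for the other 8. The exception for KO 2 was Srsf11. Relative to the WT mean the medians were -0.08 in KO 1 and -0.68 in KO 2, with the WT libraries 0.18 to either side. Without KO 2 the stem median was -0.09, and without KO 1 it was -0.68.

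Srsf1, the founding SR protein, which binds exonic enhancers, read 1009 and 617 scaled CPM in KO 1 and KO 2 and 921 and 1226 in WT 1 and WT 2. Srsf3, the smallest SR protein, which also takes part in mRNA export, read 539.6 and 315 in the KO libraries and 502 and 876 in the WT libraries. In both genes KO 2 was lowest, WT 2 highest, and KO 1 between the WT libraries. Their log2 fold changes were -0.43 (SE 0.34) for Srsf1 and -0.69 (SE 0.39, limma adjusted p 0.675) for Srsf3. Without KO 2 they were -0.084 for Srsf1 and -0.31 for Srsf3, and without WT 2 -0.22 for Srsf1 and -0.29 for Srsf3. Srsf7, an SR protein with a zinc knuckle, read 138 and 92.4 in the KO libraries and 137 and 175 in the WT libraries, the same order of libraries, and its log2 fold change of -0.46 was -0.18 without KO 2.

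Srsf4 and Srsf9 were the 2 of 10 SR genes with both KO libraries below both WT libraries, a share no higher than the background of 20.0%. Srsf4, one of the longer SR proteins, read 32.9 and 22.6 scaled CPM in the KO libraries and 42.3 and 40.3 in the WT libraries (log2 fold change -0.60, SE 0.27, limma adjusted p 0.658). Srsf9, which is close in build to Srsf1, read 26.5 and 28.6 in the KO libraries and 36.4 and 34.6 in the WT libraries (log2 fold change -0.36, SE 0.23). The estimate for Srsf4 was -0.87 without KO 1 and -0.34 without KO 2. In Srsf9 the KO libraries were close to each other, whereas in Srsf4 KO 2 was further down. The log2 fold changes of Srsf2, Srsf5, Srsf6, Srsf10 and Srsf11 lay between -0.47 for Srsf5 and 0.16 for Srsf11, with overlapping groups in all 5.

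**Figure D2:**
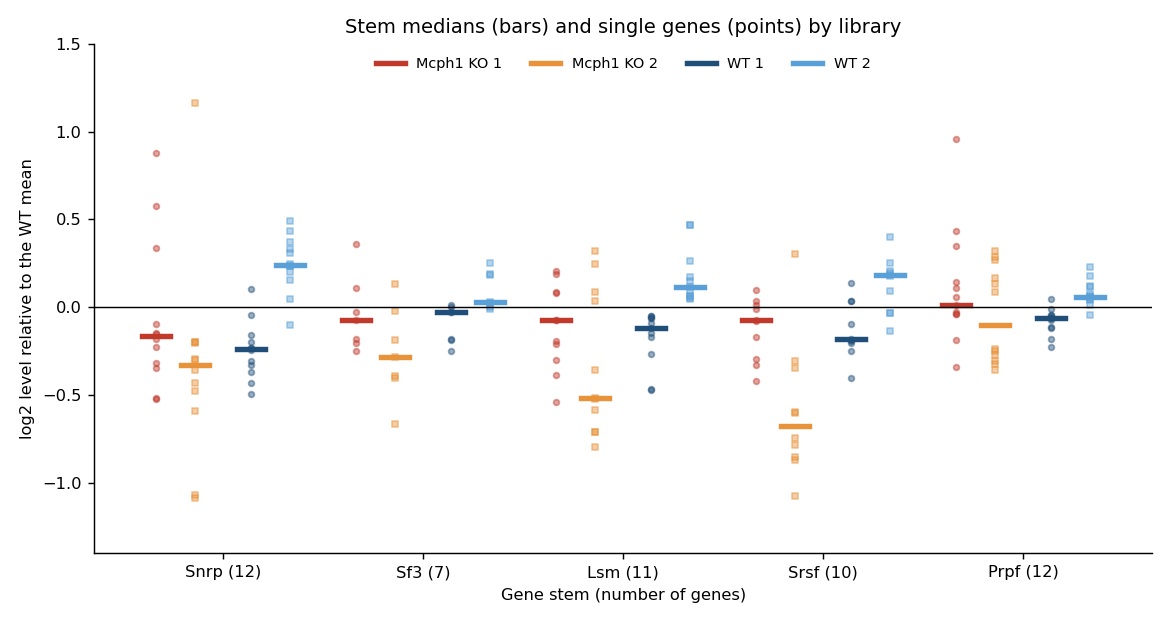
log2 level of each gene relative to the mean of the WT libraries (y axis), by stem, with 1 point for each of 52 genes and the median of all genes of the stem as a bar in each library, the KO libraries at the left. The Srsf bar of KO 2 is at -0.68 while that of KO 1 is at -0.08, and WT 2 lies above WT 1 in every stem.

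The U5 and tri-snRNP Prpf genes had a positive median log2 fold change of 0.19, with 3 of 5 higher in both KO libraries than in both WT libraries (background 21.1%). Prpf8, the protein that encloses the spliceosome's active site, read 181 and 159 scaled CPM in the KO libraries and 137 and 148 in the WT libraries (log2 fold change 0.26, SE 0.22). It was higher in both KO libraries, but the estimate was 0.17 without KO 1 and -0.04 after removal of the length and GC trend. The other 2 were Prpf3 and Prpf4, both of the U4/U6 particle, at 0.22 and 0.19. Transcript lengths were 7442 bases for Prpf8, 5223 for Prpf4 and 2933 for Prpf3. All features from 4000 bases had a median of 0.11, and those from 2000 to 4000 bases one of -0.01. The part of length in the group median was not tested. Prpf31, which holds U4 RNA in the tri-snRNP, read 128 and 121 in the KO libraries and 139.6 and 152 in the WT libraries (log2 fold change -0.23, SE 0.22), without overlap and below WT. Prpf6, the bridge between U5 and U4/U6, had a log2 fold change of -0.17 with overlap.

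Of the other 8 Prpf genes, 5 had negative estimates and the median log2 fold change was -0.14. Prpf40b, a U1-associated protein, read 82.6 and 51.0 scaled CPM in KO 1 and KO 2 and 42.1 and 42.7 in the WT libraries. Both KO libraries were above the nearly level WT pair, KO 1 by far the most (log2 fold change 0.61, SE 0.29, limma adjusted p 0.659). Without KO 1 the estimate was 0.27, and the neuron markers were also highest in KO 1; their part in it was not tested. Prpf38a, which joins the spliceosome at activation, read 90.3 and 96.3 in the KO libraries and 109 and 119.6 in the WT libraries, without overlap (log2 fold change -0.29, SE 0.22). The U1-associated Prpf39, the second-step factor Prpf18, the ubiquitin ligase Prpf19, the kinase Prpf4b and Prpf38b, lay between -0.20 and 0.28, all with overlap.

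Over all 53 genes the libraries of each group also differed from each other. KO 1 was above KO 2 for 41 genes (background 51.3%) and WT 2 above WT 1 for 46, against 5477 of the 10959 tested features. KO 2 was the lowest of the 4 libraries for 32 genes (2998 of the 10959 tested features) and WT 2 the highest for 33 (2784 of them). KO 2, the shallowest library, was below both WT libraries for 35 genes (background 37.1%), and KO 1 for 16 (background 36.2%). Median log2 levels relative to the WT mean were -0.07 in KO 1, -0.31 in KO 2, -0.12 in WT 1 and 0.12 in WT 2, so KO 1 lay within the range of the WT medians. Snrpn and Lsm14b differed more than 2-fold between the KO libraries (background 9.94%) and 0 of the 53 between the WT libraries (background 4.71%). The part of depth in these differences was not tested.

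**Figure D3:**
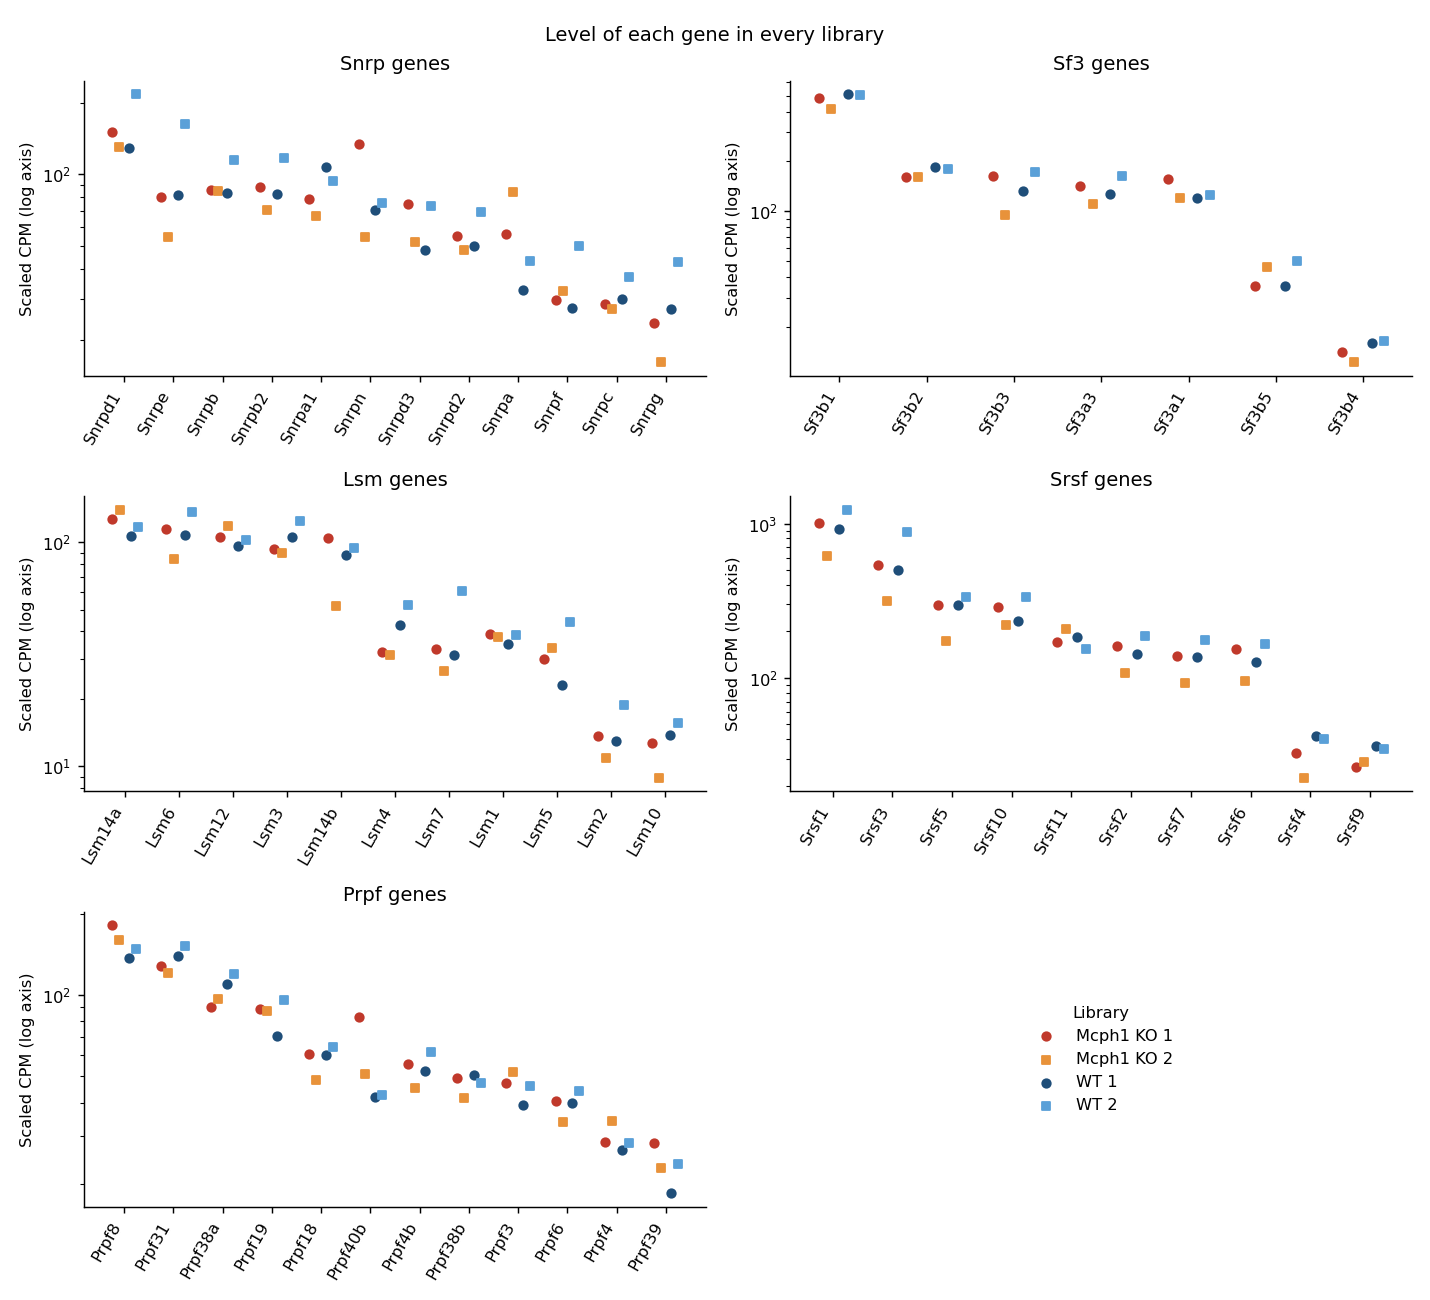
Scaled CPM of 52 of the 53 genes in each library (log y axis), 1 panel per stem with genes in descending order of mean level, the KO libraries drawn left of the WT libraries. Srsf1 reaches 1226 in WT 2, and Lsm10 is at 8.89 in KO 2.

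Per length, 3 SR genes, 2 Sm genes and Lsm3 had the highest levels of the 53. The mean over the 4 libraries was 213 scaled CPM per kilobase of transcript for Srsf3, 183 for Snrpd1, 176 for both Srsf5 and Srsf1, 141 for Snrpe and 139 for Lsm3. A gap in these means separated the 6 from Snrpb at 79.4, Srsf2 at 78.7 and Sf3b1 at 77.2. In KO 2 it was narrow, with Snrpe at 81.0 and Snrpb at 73.0. The order within the 6 was not fixed across libraries: Srsf3 per kilobase ran from 120 in KO 2 to 335 in WT 2, and Snrpd1 from 151 in WT 1 to 253 in WT 2, so neighbours overlapped. Prpf genes were low, up to 68.5 for Prpf38a, and Prpf4 was the lowest of the 53 at 5.64. Genes of one Sm ring had unequal levels per kilobase, 183 for Snrpd1, 26.0 for Snrpg and 20.4 for Snrpd3. The lengths used were of the longest coding transcript, 3036 bases for Snrpd3 and 1055 for Snrpg, and Snrpg has a near-identical pseudogene. Srsf3, Srsf5 and Snrpe, among the highest, also have near-identical annotated genes.

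The estimated change ran with transcript length in these genes and, more weakly, across all tested features with a known length, members included. Spearman's rho between length and log2 fold change was 0.49 across the 53 genes and 0.28 across 9965 features with a known length, a description across genes that share the same 4 libraries. Transcripts under 1000 bases had a median of -0.34 for the 8 members and -0.25 for all 633 features. From 1000 to 2000 bases the medians were -0.31 for 13 members and -0.12 for 1892 features, and from 2000 to 4000 bases -0.16 for 22 members and -0.01 for 3906 features. From 4000 bases they were -0.04 for 10 members and 0.11 for 3534 features. In all 4 classes the members' median was the lower one. By library, relative to the WT mean, this held in all 4 classes for KO 2 but not for KO 1. KO 1 medians under 1000 bases were -0.26 for members and -0.35 for all features, and from 2000 to 4000 bases 0.01 and -0.02. They were -0.21 and -0.19 from 1000 to 2000 bases, and 0.08 and 0.17 from 4000 bases. KO 2 medians under 1000 bases were -0.44 and -0.15. With the trend on length and GC content removed, the stem medians were -0.25 for Srsf, -0.18 for Sf3, -0.14 for Lsm, -0.06 for Prpf and -0.04 for Snrp genes.

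**Figure D4:**
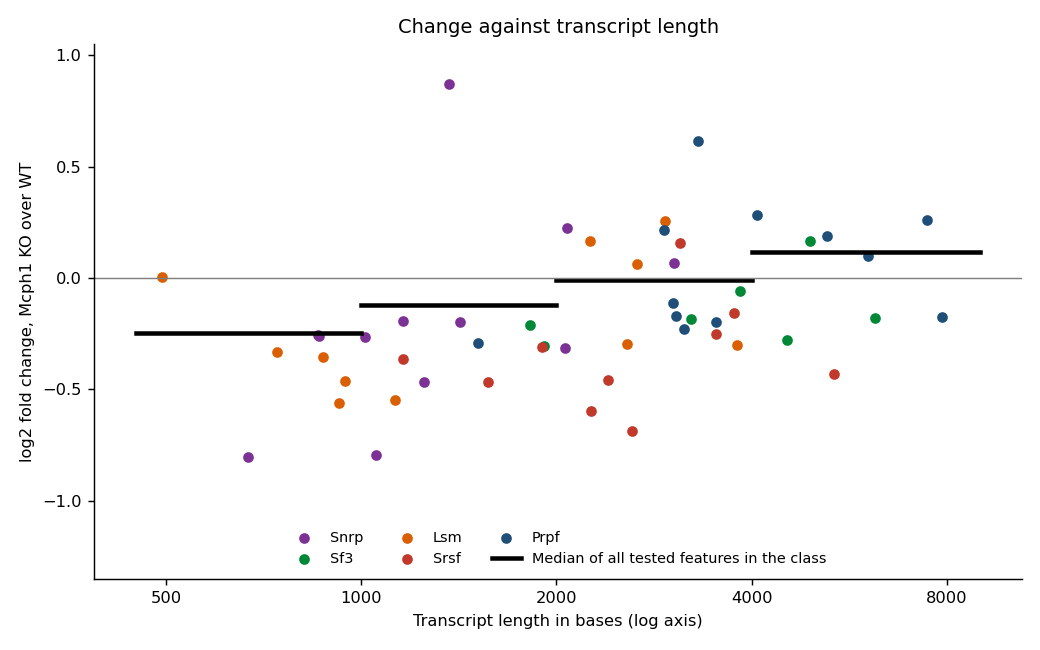
log2 fold change, Mcph1 KO over WT (y axis), against transcript length in bases (log x axis) for 52 of the 53 genes, coloured by stem, with the median of all tested features in 4 length classes as black lines. The medians of all features go from -0.25 in the shortest to 0.11 in the longest class, and short Snrp and Lsm genes lie at the left, long Prpf genes at the right.

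Reads of some members may be shared with other annotated genes. Of the 53 genes, 17 had another annotated gene with at least 98% identity over 150 or more bases of coding sequence, so their values are uncertain. Among them were Snrpe, Snrpg, Sf3b4, Lsm6, Lsm7 and Srsf3, whose matching genes do not overlap them. For Snrpn, Srsf2, Srsf4 and Prpf31 the matching gene overlaps the member at the same locus. Annotated genes on the same strand overlapped 10 members, and on the other strand 17, including Snrpa, which overlaps BC024978. The libraries keep strand, but whether the counting used it is not stated.

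Splicing genes outside the symbol rule showed no call either, and their lists leaned in both directions. Of 13 listed U1 and U11/U12 proteins 8 were higher and 5 lower (median log2 fold change 0.14). Rnpc3, the 65K protein of the minor spliceosome, read 130.01 and 147 scaled CPM in the KO libraries and 104 and 94.0 in the WT libraries (log2 fold change 0.49, SE 0.22). Of 13 factors of the 3′ splice site and U2 recruitment (of 14 on the list) 5 were higher and 8 lower, median -0.15, with Puf60 at -0.41 and Smndc1 at 0.42. Of 14 further U5 and tri-snRNP proteins 4 were higher and 10 lower, median -0.14. The 15 symbols of that list include Nhp2l1 and Snu13, which name the same gene. There the cyclophilin Ppih was at -0.81 and Snrnp40 at -0.45.

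Later steps and regulators varied likewise. Of 27 Prp19-associated and catalytic proteins 9 were higher and 18 lower, median -0.06. Isy1, a factor of the catalytic spliceosome, read 40.3 and 27.0 scaled CPM in the KO libraries and 59.3 and 60.1 in the WT libraries (log2 fold change -0.85), and Syf2 was at -0.59. Of 16 genes on the exon junction complex list, which also holds mRNA export genes such as Thoc7, 7 were higher and 9 lower. Their median was -0.10, with Thoc7 at -0.56 and Eif4a3 at -0.46. Of 18 genes for the SMN complex and particle assembly, which loads Sm rings onto RNA, 5 were higher and 13 lower, median -0.15. Gemin2, the clamp that holds Sm proteins for loading, read 7.05 and 7.47 in the KO libraries and 12.4 and 13.4 in the WT libraries (log2 fold change -0.82, SE 0.28), and the assembly cofactor Strap was at -0.58.

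The kinases that phosphorylate SR proteins had estimates of both signs. Of 9 kinase symbols on the list 7 were matched, 4 higher and 3 lower, with a median of 0.08. Prp4k was not matched, but it is another name of the member Prpf4b, which had a log2 fold change of -0.18. Clk2, a nuclear SR kinase, read 77.9 and 88.7 scaled CPM in the KO libraries and 51.9 and 51.8 in the WT libraries (log2 fold change 0.68, SE 0.22). Both KO libraries were well above a level WT pair, and the limma adjusted p was 0.655. Dyrk1a was at 0.33. Of 19 SR-related features (from a list of 22 genes) 10 were higher and 9 lower, median 0.03, with Tra2a, which binds exonic enhancers, at -0.62 and Srrm1 at 0.51.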

How the data were processed

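Each deposited value is a normalized signal, a count that the authors had divided by a constant of its library, as the steps between values show. The submitters' processing notes name STAR 2.3.0, SAMtools 0.1.19, Picard 1.119, FastQC 0.10.1 and DESeq 1.12.1 without their roles. Genome build, gene models, way of counting and choice of features: not given in the sources used here. In every library 100% of the values were whole multiples of 1 step within 0.01 of a step, so reads were recovered (10936719 and 5975471 in KO 1 and KO 2, 7109365 and 22347416 in WT 1 and WT 2). In WT 2 the smallest value is 2 steps. The deposited values are not on a common scale, so TMM factors from edgeR 4.0.16 were applied. filterByExpr at a minimum count of 10 kept 10959 of 11160 features and all 53 members. limma 3.58.1 (R 4.3.3) with a mean trend was run on log2(scaled value + 1), KO over WT, Benjamini-Hochberg over all features. That scale understates changes of low genes. limma called 0 features (831 at an unadjusted p of 0.05); on recovered reads edgeR's quasi-likelihood test called 0 (866) and DESeq2 1.42.0 called 21 (802), 6 higher and 15 lower. The functions were tested on simulated data. Alternatives were other scalings, filters, pseudocounts, tests, a replicate block, each library left out and removal of the length and GC trend.

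Lengths are of the longest coding transcript in GENCODE M21 (89.5% of features). Near-identical sequences in other genes were found with blastn 2.17.0, and promoters come from RefSeq. The members, 10 lists of related genes and 9 of cell type markers were chosen with earlier results of these data known. Values in every library are given for 27 of the 28 members chosen as follows: in each stem the 4 with the smallest p, the 2 with the highest mean level and the 1 with the largest difference between the KO libraries. Of each related list the 2 genes with the smallest p are named. Single results of 1 member and 1 related gene that this rule picks are not reported here; counts and medians over groups include them.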

Additional observations from a re-analysis of the deposited data

How the results depend on the processing

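No member was called by any of the 17 alternatives (limma, edgeR or DESeq2). At an unadjusted limma p of 0.05, 4 of the 53 members counted without scaling (740 of 10937 features) and 7 with the crossed pairing (1481 of 10959). In the alternatives other than the crossed pairing, 734 recomputed values of 47 named genes kept their sign and were again not called, and 18 had the other sign. Size was not part of this count: Sf3b1, at -0.18 in the main fit and -1.45 without scaling, counted as kept. Some settings, such as the pseudocounts and the replicate block, change the estimates little by construction. Without scaling, where the median of all features was -1.25, 6 features were called, all lower, the stem medians were -1.53 (Snrp), -1.46 (Sf3), -1.57 (Lsm), -1.67 (Srsf) and -1.38 (Prpf), and these estimates reversed: Snrpa -0.40, Prpf8 -1.01, Prpf40b -0.66, Lsm14a -1.02, Snrpn -1.05, Rnpc3 -0.79, Smndc1 -0.84, Clk2 -0.59, Dyrk1a -0.93, Srrm1 -0.76, Dcp1a -0.50 and Patl1 -0.80. DESeq2 called 21 features.

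Leaving out 1 library gave 0 to 179 called features: 25 without KO 1 (6 higher, 19 lower), 179 without KO 2 (110 higher, 69 lower), 0 without either WT library (474 without WT 1 and 191 without WT 2 at an unadjusted p of 0.05). The lone library is then assumed to vary like the other group. Stem medians ran from -0.43 to 0.038 (Snrp, the highest without WT 2), -0.31 to -0.08 (Sf3), -0.52 to -0.08 (Lsm), -0.68 to -0.09 (Srsf) and -0.13 to 0.0010 (Prpf, the highest without KO 2). Snrpn ran from -0.43 (without KO 1) to 0.87, Lsm14b from -0.80 to 0.20 and Sf3b3 from -0.67 to 0.098 (both highest without KO 2), and Snrpd1 from -0.63 to 0.12 (without WT 2). With the length and GC trend removed, Prpf8 was -0.036 and Snrpd1 0.038. The causes were not tested beyond the settings' own construction.

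Whether libraries with the same replicate number belong together is not given in the labels. Deviations from the group means correlated at -0.31 between KO 1 and WT 1 and, by construction, at 0.31 between KO 1 and WT 2. That value cannot decide the question. With the number as a replicate block, limma and edgeR called 0 features (473 and 458 at an unadjusted p of 0.05) and 0 members, and the limma stem medians (-0.26, -0.19, -0.30, -0.40 and -0.11 for Snrp, Sf3, Lsm, Srsf and Prpf) equal those without the block by construction, since each block holds 1 library of each group. A crossed pairing, chosen after seeing the data because the same-number correlation was -0.31, called 0 features (1481 unadjusted) and 0 members (7 unadjusted). Both groups have 2 libraries, which limits what any of these tests can call.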

Other observations

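The hnRNP proteins, which package pre-mRNA and often oppose SR proteins at exons, had mostly negative estimates. Of 24 listed (of 25 on the list) 5 had positive and 19 negative estimates, median log2 fold change -0.14, and relative to the WT mean the medians were 0.14 in KO 1 and -0.44 in KO 2. Their summed level was 7728 scaled CPM in KO 1 and 5266 in KO 2, and 6816 and 9294 in WT 1 and WT 2, the same order of libraries as for Srsf1 and Srsf3. Hnrnpc, which coats introns, read 347 and 343 in the KO libraries and 589 and 510.3 in the WT libraries (log2 fold change -0.67, SE 0.23). Hnrnpf, which binds G-rich RNA, read 810.1 and 688 in the KO libraries and 982 and 1461 in the WT libraries (log2 fold change -0.68, and -0.40 without WT 2). Neither passed the limma test, and 0 of the 24 did.

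Partners of the cytoplasmic Lsm ring in mRNA decapping leaned the other way. Of 7 measured (of 8) 6 had positive estimates, 5 of them higher in both KO libraries than in both WT libraries (background 21.1%), with a median log2 fold change of 0.29, against -0.33 for the Lsm ring genes. Dcp1a, an activator of the decapping enzyme, read 28.0 and 35.0 scaled CPM in the KO libraries and 18.2 and 18.5 in the WT libraries (log2 fold change 0.77, SE 0.25). Patl1, which bridges the Lsm ring and decapping, read 31.9 and 29.2 in the KO libraries and 22.2 and 21.7 in the WT libraries (log2 fold change 0.47, SE 0.23). Neither passed the limma test. Median transcript length was 5576 bases for the decapping genes and 925 bases for the Lsm ring genes; its part in the difference was not tested.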
